A study of Rattus norvegicus with 28 samples.

Results

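The late breast-fed ileum was represented by 6 arrays, chosen by their titles as those of pups killed on day 3 or day 4 of life (3 arrays per day), out of 28 arrays in all. They were set against the 4 arrays of unfed newborns, and all 8740 non-control probe sets of the array were considered. The study followed a rat model of necrotizing enterocolitis, a bowel inflammation of preterm infants, and measured total RNA of the terminal ileum on Affymetrix rat arrays, each from 1 pup. The late breast-fed pups had been reared on breast milk up to day 3 or 4. Late formula and hypoxia pups (6 arrays, days 3 and 4) had received formula instead of milk, combined with hypoxic stress 3 times a day. Early breast-fed pups (6 arrays) were killed on day 1 or 2, and the unfed newborns (day 0) had not been fed. Strain, sex and litter are not given in the labels. Late breast-fed and unfed pups differed both in age and in feeding, and these cannot be told apart.

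At birth the ileal lining passes from amniotic fluid to milk, a diet rich in fat and cholesterol. In suckling rats its epithelial cells take up whole milk proteins by endocytosis and digest them in lysosomes, and the adult set of sugar-splitting enzymes appears at weaning. Cells that receive cholesterol from outside lower their own synthesis through the sterol-sensing SREBP transcription factors. Over the same days goblet cells lay down the mucus layer and red cell production leaves the fetal organs.

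The tissue label was checked against enterocyte markers. Of the 10 listed, 9 were on the array and all 9 were tested, and their summed normalised signal was 11957 to 19231 on the late breast-fed arrays and 10334 to 24126 on the unfed arrays. Markers of exocrine pancreas had sums of 990 to 1439 and 678 to 1654. Fabp6, the ileal bile acid binding protein, gave 417 to 1327 on the late breast-fed arrays and 536, 732, 813 and 863 on the unfed arrays. Si, the sucrase-isomaltase that marks the weaned gut, was not tested.

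Several arrays stood apart before any group was compared. A probe set was counted as lost on an array where its median elsewhere exceeded 500 and its own value was over 16-fold below that median. By this count 69 of 763 were missing from day 3 replicate 3 of the breast-fed pups and 48 of 766 from day 4 replicate 2, against 0 to 2 on the other 26 arrays. Their median correlations with the other arrays were 0.807 and 0.822, against 0.867 to 0.933. These 2 deviating arrays lost 106 probe sets between them, with 11 lost on both, and the main counts below are also given without them. The BioB spike-in control averaged 6.68 on day 3 replicate 3, and 11.1 and 42.3 on unfed replicates 2 and 3, and unfed replicate 2 correlated better with breast-fed day 1 replicate 1 (0.959) than with any other unfed array (0.876 to 0.931). Median deposited signals ranged over 30.3 to 53.9 on the late breast-fed, 25.8 to 42.6 on the unfed and 28.7 to 48.1 on the other 18 arrays. The 3′ to 5′ ratio of the actin controls was 1.16 to 2.42 on the late breast-fed and 0.97 to 2.29 on the unfed arrays.

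The first question was how the ileum had changed by days 3 and 4 of breast feeding. Some genes of mucus, lipid uptake, peptide digestion and lysosomal breakdown were among those that rose. Genes of cholesterol synthesis, lipid desaturation and red cells were among those that fell, as were Zg16 of mucin granules and Fabp1 of fat uptake. In limma's moderated test with Benjamini-Hochberg adjustment over all 5244 probe sets tested, 558 probe sets were called at an adjusted p under 0.05 (10.6%), 347 higher and 211 lower in late breast-fed ileum. Represented by their brightest probe set, 230 of 3185 genes were higher (7.22%) and 109 were lower (3.42%), and 105 of the higher and 48 of the lower genes differed more than 2-fold. The median standard error of a difference was 0.27 on the log2 scale, and the median difference of all genes tested was 0.00389. Without the 2 deviating arrays, 99 genes were higher (3.11%) and 53 lower (1.66%). All 339 genes called with the full set kept their sign without them, and 132 were called both ways. The fits share most of their arrays, so the kept signs are no separate support. With the deposited signals in place of normalised ones, 471 probe sets were called higher and 106 lower, which is 81.6% higher against 62.2% after normalisation, and the median probe set was shifted by 0.15 on the log2 scale. The samples were divided by registration number into a pair of accession runs, the first with 2 late breast-fed and 1 unfed array and the second with 4 and 3. Unfed replicate 2 was counted in the second run, although its number lay apart from the others. Its title also carried an extra letter b. With the run as a term 599 probe sets were called, within the first run 14 (9 higher and 5 lower) and within the second 173 (49 higher and 124 lower). Leaving out 1 array at a time gave 252 calls (without unfed replicate 3) to 676 (without breast-fed day 3 replicate 2), with 273 without unfed replicate 1, 675 without unfed replicate 2, 346 without breast-fed day 3 replicate 3 and 359 without breast-fed day 4 replicate 2.

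Signals below are quantile normalised, and each fold is a ratio of signals after adding 8, which understates the change of dim probe sets. All p-values are adjusted values from the limma fit. Of the called genes 112 had other tested probe sets, 146 in all, of which 123 had the same sign, 45 were called with the same sign and 1 was called with the opposite sign. Of 98 called genes picked by the naming rule, 97 had the same direction within both runs, and the exception was Ncam1, a neural cell adhesion molecule. These genes were called on the same arrays that the runs divide, so the shared direction is no separate support. In whole tissue, fewer cells of a type and less RNA per cell cannot be told apart.

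Several mucus genes were among the largest rises. Muc2, the gel-forming mucin that goblet cells secrete, had a lowest, median and highest signal of 775, 1249 and 2076 on the late breast-fed arrays, against 212, 73.1, 215 and 258 on the unfed arrays. The groups did not overlap, and the rise was 6.97-fold (95% confidence interval 3.96 to 12.3, adjusted p = 0.000144). It came from 1 of the gene's probe sets, since another tested one averaged 60.4 in late breast-fed and 57.8 in unfed ileum. Clca4, a secreted or membrane protein of the calcium-activated chloride channel regulator family, had signals of 999, 4194 and 5902 in late breast-fed ileum and 280, 1720, 505 and 609 in unfed ileum. One late breast-fed array, day 4 replicate 1, lay inside the unfed range. Muc13, a mucin anchored in the epithelial membrane, rose 3.72-fold (2.0 to 6.94, adjusted p = 0.00737), and its other probe set differed by 1.69 on the log2 scale (adjusted p = 0.0132). Zg16, a lectin of zymogen and mucin granules, went the other way. Its signals were 80.6, 94.3 and 308 in late breast-fed ileum and 621, 298, 665 and 546 in unfed ileum, a difference of -2.0 ± 0.46 (log2, standard error), and 1 late breast-fed array, day 4 replicate 2, lay inside the unfed range. Tff3, a goblet cell peptide that protects the mucosa, differed by 0.22 ± 0.24 (adjusted p = 0.602). Of 6 tested genes listed as goblet and Paneth cell markers 2, Muc2 and Clca4, were higher (33.3%, against 7.22% of all genes). Zg16 was the 1 lower (16.7%, against 3.42%). The counts were the same without the 2 deviating arrays.

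Genes of fat uptake moved both ways. Fabp5, a fatty acid binding protein, had signals of 3476, 4297 and 5414 in late breast-fed ileum and 1200, 799, 1680 and 1200 in unfed ileum, with no overlap. The rise was 3.65-fold (2.59 to 5.15, adjusted p = 5.14e-05). Lipa, the lysosomal acid lipase that frees cholesterol and fatty acids from lipoproteins, gave 737, 1253 and 1918 in late breast-fed ileum and 267, 457, 297 and 534 in unfed ileum, again with no overlap. The other tested probe sets of Lipa differed by 0.98 and 0.74 (adjusted p = 0.0908 and 0.126) and were not called. Apob, the structural protein of chylomicrons, rose 3.52-fold (2.05 to 6.05), with signals of 1104, 2101 and 2455 against 367, 764, 698 and 431 in unfed ileum. Its 3 other tested probe sets differed by -0.70, -0.19 and 0.47 on the log2 scale and none passed the test. Apoa1, the main protein of high density lipoprotein, rose 1.78-fold, with an adjusted p of 0.00364. Fabp1, the liver-type fatty acid binding protein of enterocytes, fell. It gave 392, 1182 and 2444 in late breast-fed ileum and 3480, 7780, 2820 and 3480 in unfed ileum. The groups did not overlap, but the call held in only 3 of the 10 fits that left out 1 array. Apoa4, a chylomicron apolipoprotein, showed no call (0.15 ± 0.42, adjusted p = 0.863). Of 16 tested genes of fat absorption and lipoproteins 4 were higher (25%, against 7.22% of all genes) and 1 was lower (6.25%, against 3.42%). Without the 2 deviating arrays 3 were higher and 1 was lower. The list's median difference was 0.01, against 0.00 over all genes tested.

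Of 25 tested genes of fatty acid oxidation and ketone synthesis 3 were higher (12%, against 7.22% of all genes) and 0 lower, or 2 and 0 without the 2 deviating arrays, and the list's median was -0.09. Cpt1a, the carnitine palmitoyltransferase that admits long-chain fatty acids to mitochondria, had signals of 256, 358 and 480 in late breast-fed ileum and 145, 244, 168 and 128 in unfed ileum, with no overlap, and rose 2.10-fold (adjusted p = 0.00666). Acaa2, the mitochondrial thiolase, rose 1.84-fold (adjusted p = 0.00243), and Hadha, a chain of the trifunctional protein, rose 1.55-fold with all arrays (adjusted p = 0.0488). The other tested probe sets of Hadha differed by 0.23 and -0.14 and were not called. Outside that list, Abcd3, a transporter of the peroxisome membrane, gave 403, 624 and 776 in late breast-fed ileum and 177, 189, 123 and 169 in unfed ileum, a 3.57-fold rise (2.57 to 4.96) with no overlap. Its other tested probe set averaged 138 in late breast-fed and 156 in unfed ileum and was not called (-0.19, adjusted p = 0.637). Fbp1, the gluconeogenic fructose bisphosphatase, gave 254, 408 and 840 in late breast-fed ileum and 91.0, 212, 116 and 102 in unfed ileum, with no overlap and a 3.31-fold rise (2.06 to 5.32). It was the 1 gene called of 16 tested for gluconeogenesis and sugar handling (6.25%, near the 7.22% of all genes). Pck1, the enzyme that commits carbon to gluconeogenesis, was not called (-1.42 ± 0.69, adjusted p = 0.192).

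**Figure D1:**
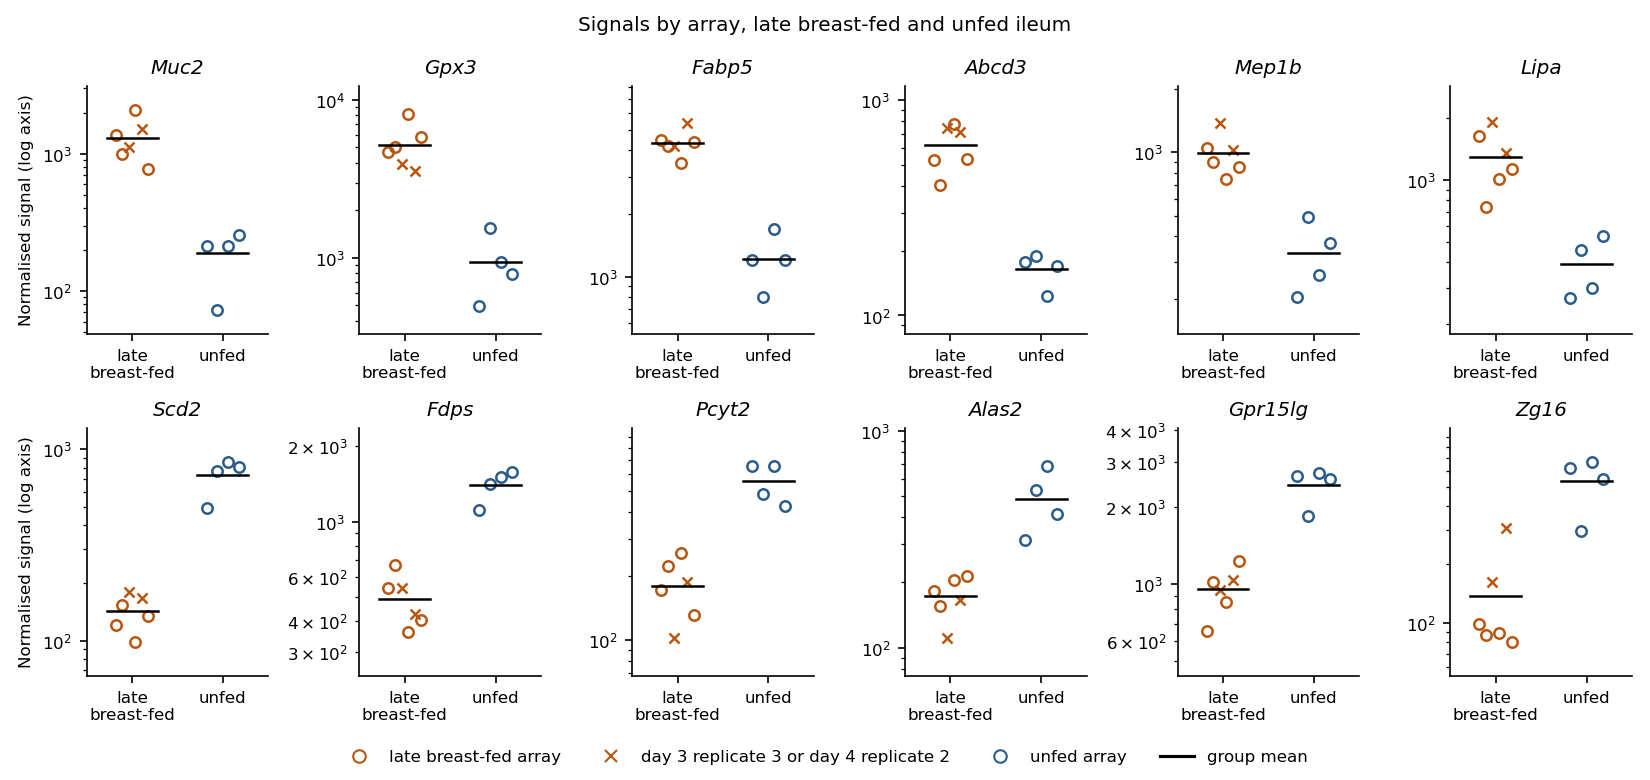
Quantile normalised signal (log axis, arbitrary units) of 12 genes on each of the 6 late breast-fed arrays (left) and 4 unfed arrays (right), with black lines at group means and crosses for the 2 deviating arrays. The upper 6 genes were higher and the lower 6 lower in late breast-fed ileum, and the groups overlapped only for Zg16, where day 4 replicate 2 lay at 308 and the lowest unfed array at 298.

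Some peptidases of the brush border rose, and the milk sugar enzyme did not pass the test. Mep1b and Mep1a encode both chains of meprin, a metalloprotease of the enterocyte surface. Mep1b had signals of 746, 969 and 1377 in late breast-fed ileum and 205, 491, 261 and 372 in unfed ileum, with no overlap. It rose 3.04-fold (1.98 to 4.67, adjusted p = 0.00185), and Mep1a rose 2.83-fold (1.73 to 4.63, adjusted p = 0.00737) with 2 late breast-fed arrays inside the unfed range. Anpep, aminopeptidase N, rose 2.78-fold with all arrays (adjusted p = 0.0229), and its adjusted p was 0.0971 without the 2 deviating arrays. Its signals overlapped, with 1930 on unfed replicate 2 and 351 to 539 on the other unfed arrays. Its other tested probe sets differed by -0.39 and -0.69 (adjusted p = 0.715 and 0.0706) and were not called. Lct, the lactase that splits milk sugar, gave 259, 365 and 617 in late breast-fed ileum and 311, 368, 237 and 248 in unfed ileum, and these ranges overlapped (0.44 ± 0.23, adjusted p = 0.232). The fructose transporter Slc2a5 (-0.76 ± 0.34) and the sodium-glucose transporter Slc5a1 (-0.64 ± 0.31) were not called either in their brightest probe sets. A second Slc2a5 probe set averaged 13.9 in late breast-fed and 62.0 in unfed ileum and was called lower (-1.52, adjusted p = 0.0244). Of 18 tested brush border genes 3 were higher (16.7%, against 7.22% of all genes) and 0 lower. Without the 2 deviating arrays 2 were higher and 0 lower. The list's median was 0.44 with all arrays.

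By count, the endocytic and lysosomal genes formed the list with the most rises, 8 in all. Of 27 tested, 8 were higher (29.6%, against the 7.22% of all genes tested) and 0 were lower, with a median of 0.44, and without the 2 deviating arrays 3 were higher with a median of 0.33. The share called higher was 33.3% in each of the smaller lists of iron handling and of goblet and Paneth cells. Ctsl, the lysosomal protease cathepsin L, gave 7293, 8907 and 9601 in late breast-fed ileum and 2830, 6380, 3530 and 3560 in unfed ileum. The groups did not overlap, and the 2.23-fold rise (1.74 to 2.87, adjusted p = 0.00026) was accompanied by a rise of 1.71 on the log2 scale in another probe set. Man2b1, lysosomal alpha-mannosidase, rose 2.5-fold (1.68 to 3.73). Its signals were 679, 1035 and 1867 in late breast-fed ileum and 314, 835, 315 and 350 in unfed ileum, where unfed replicate 2 overlapped the late breast-fed arrays. The other tested probe set of Man2b1 differed by 0.52 and was not called (adjusted p = 0.308). Ctsh, another cathepsin, rose 2.0-fold. Cubn, the endocytic receptor cubilin that takes up cobalamin with intrinsic factor, gave 105, 120 and 252 in late breast-fed ileum and 54.9, 54.7, 63.8 and 40.7 in unfed ileum. Those values did not overlap, and the adjusted p was 0.023, or 0.0566 without the 2 deviating arrays. Fcgrt, the neonatal Fc receptor that carries milk antibodies across the epithelium, was not called (0.18 ± 0.27, adjusted p = 0.718). Lists of macrophage genes share Ctss, a cathepsin of antigen-presenting cells, which rose 1.82-fold with all arrays. Of 12 macrophage and granulocyte markers 3 were higher (25%, against 7.22% of all genes) and 2 lower (16.7%, against 3.42%). Their summed signal was 3419 to 4805 in late breast-fed and 1991 to 3147 in unfed ileum, and without the 2 deviating arrays 0 passed. The part of these cells in the lysosomal result was not tested.

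Some genes of iron handling rose. Slc40a1, ferroportin, the exporter that releases iron into the blood, gave 268, 547 and 818 in late breast-fed ileum and 98.3, 194, 182 and 161 in unfed ileum. These did not overlap, the rise was 3.02-fold (1.92 to 4.75), and the gene's other probe set differed by 1.34 on the log2 scale (adjusted p = 0.00708). Slc11a2, the apical iron importer DMT1, rose 1.94-fold (1.38 to 2.71) and Aco1, the aconitase that doubles as an iron sensor, rose 2.33-fold (1.58 to 3.43). Both overlapped the unfed range, with 3 late breast-fed arrays above it for Slc11a2 and 5 for Aco1. The other tested probe sets of Slc11a2 differed by 0.47 and 0.50 (adjusted p = 0.436 and 0.263) and were not called. Of 9 tested genes for metallothioneins and iron handling Slc40a1, Slc11a2 and Aco1 were the 3 higher (33.3%, against 7.22% of all genes), and 0 were lower. The counts were the same without the 2 deviating arrays. Of 10 tested genes of bile acid and cobalamin uptake 1, Cubn, was higher (10%, against 7.22% of all genes) and 0 were lower. The bile acid genes Fabp6 (0.28 ± 0.28) and Slc10a2, the apical bile acid transporter (-0.13 ± 0.29), were not called in their brightest probe sets. A second Fabp6 probe set averaged 184 in late breast-fed and 26.6 in unfed ileum and differed by 2.27 (adjusted p = 0.005), so the probe sets of Fabp6 disagreed.

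Genes of cholesterol synthesis fell or did not pass the test. All 16 tested genes of cholesterol synthesis and uptake had a negative difference, 5 passed the test as lower (31.2%, against 3.42% of all genes) and 0 as higher, and the list's median was -0.62. The summed signal was 2375 to 4150 on the late breast-fed arrays and 5507 to 7331 on the unfed arrays, and these ranges did not overlap. Without the 2 deviating arrays 3 of the 5 passed, the median was -0.54 and Dhcr7, the last enzyme of the pathway, stood at 0.42. Fdps, farnesyl diphosphate synthase, had signals of 361, 484 and 672 in late breast-fed ileum and 1110, 1420, 1510 and 1580 in unfed ileum. No values overlapped, the fall was 2.87-fold (2.16 to 3.81, adjusted p = 5.14e-05), and both other probe sets fell, by 1.61 and 1.65 on the log2 scale. Msmo1, the sterol C4-methyl oxidase, gave 233, 458 and 530 in late breast-fed ileum and 696, 863, 717 and 1010 in unfed ileum, again apart. Acat2, the cytosolic thiolase at the entry of the pathway, gave 442, 490 and 767 in late breast-fed ileum and 1120, 972, 1220 and 1080 in unfed ileum, and these too were apart. The other pair of called genes, Mvd and the squalene synthase Fdft1, fell by 0.71 and 0.80 on the log2 scale and had adjusted p-values of 0.0894 and 0.0977 without the 2 deviating arrays.

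Other lipid genes fell beside them. Scd2, a stearoyl-CoA desaturase that makes monounsaturated fatty acids, had signals of 97.9, 144 and 179 in late breast-fed ileum and 495, 771, 861 and 811 in unfed ileum. The groups did not overlap, and the fall was 4.93-fold (2.92 to 8.32, adjusted p = 0.000397). Of its other tested probe sets 1 fell by 2.79 on the log2 scale and the other differed by 0.05. Pcyt2, an enzyme of phosphatidylethanolamine synthesis, gave 102, 180 and 258 in late breast-fed ileum and 661, 485, 658 and 425 in unfed ileum, with no overlap and a 3.10-fold fall (2.11 to 4.55). Elovl5, an elongase of polyunsaturated fatty acids, rose 1.67-fold with all arrays (adjusted p = 0.0163) and had an adjusted p of 0.103 without the 2 deviating arrays. Of 6 tested genes of fatty acid synthesis and desaturation 1 was higher (16.7%, against 7.22% of all genes) and 1 lower (16.7%, against 3.42%).

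The promoters of 4 of the lipid genes that fell are shown for the CCAAT box, the site of the NF-Y factor that acts beside SREBP at many sterol-regulated promoters. The sequences are RefSeq's for the GRCr8 assembly and run 5′ to 3′ on the gene's strand from 250 bases before to 50 bases after the start site. Capitals mark each CCAAT box, written CCAAT or, on the other strand, ATTGG. They lie at chr2:176804767-176805066 on the minus strand (Fdps), chr16:29746863-29747162 on the plus strand (Msmo1), chr1:50100590-50100889 on the plus strand (Acat2) and chr1:253118127-253118426 on the plus strand (Scd2), each across the start of its gene.
Fdps: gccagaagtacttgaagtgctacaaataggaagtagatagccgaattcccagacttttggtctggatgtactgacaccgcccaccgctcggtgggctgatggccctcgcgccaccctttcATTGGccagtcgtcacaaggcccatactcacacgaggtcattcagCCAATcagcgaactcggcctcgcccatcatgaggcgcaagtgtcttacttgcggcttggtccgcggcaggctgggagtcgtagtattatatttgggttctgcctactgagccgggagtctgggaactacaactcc
Msmo1: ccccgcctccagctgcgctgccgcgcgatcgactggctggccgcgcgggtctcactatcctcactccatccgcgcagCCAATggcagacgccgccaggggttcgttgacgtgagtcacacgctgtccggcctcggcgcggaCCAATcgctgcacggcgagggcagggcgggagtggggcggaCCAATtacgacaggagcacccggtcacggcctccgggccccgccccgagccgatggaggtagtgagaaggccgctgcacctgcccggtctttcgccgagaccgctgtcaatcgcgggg
Acat2: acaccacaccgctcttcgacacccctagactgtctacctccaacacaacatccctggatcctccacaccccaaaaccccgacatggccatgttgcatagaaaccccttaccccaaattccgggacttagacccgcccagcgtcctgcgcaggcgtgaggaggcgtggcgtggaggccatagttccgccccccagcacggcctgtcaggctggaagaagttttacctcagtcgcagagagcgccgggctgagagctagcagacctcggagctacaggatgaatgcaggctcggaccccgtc
Scd2: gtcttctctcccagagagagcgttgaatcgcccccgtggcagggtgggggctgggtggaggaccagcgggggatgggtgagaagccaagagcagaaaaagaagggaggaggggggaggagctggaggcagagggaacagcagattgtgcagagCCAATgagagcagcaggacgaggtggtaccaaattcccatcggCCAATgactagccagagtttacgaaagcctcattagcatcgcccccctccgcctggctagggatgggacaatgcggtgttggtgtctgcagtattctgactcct

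The box stood 130 and 85 bases before the start of Fdps, 173, 109 and 68 bases before that of Msmo1, and 97 and 54 bases before that of Scd2. The window of Acat2 held 0. Among the 14 cholesterol genes with a promoter entry 11 held at least 1 box (78.6%), against 999 of 2632 promoters of all genes tested (38%), 37.2% of the promoters of higher genes and 38% of those of lower genes. The box was also in 71.4% of the red cell promoters (5 of 7) and 45.5% of those of the endocytic and lysosomal list (10 of 22). The GC box GGGCGG was in 85.7% of the cholesterol promoters and 61.7% of all. Shares of all promoters were 1.41% for the E2F motifs TTTCGCGC and TTTGGCGC, 9.19% for the CDX motif TTTATNG and 10.1% for the TATA box TATAAA, and 0 of the 14 cholesterol promoters held any of these. All motifs were searched exactly, on both strands, and the list was chosen with its values known, so the shares are a description.

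Genes of red cells fell or did not pass the test. Of 11 tested red cell markers 5 were lower (45.5%, against 3.42% of all genes) and 0 higher, with a median of -0.58, and 4 were lower without the 2 deviating arrays. Their summed signal was 8302 to 14742 in late breast-fed ileum and 17668 to 20420 in unfed ileum, with no overlap. Alas2, the enzyme that starts haem synthesis in red cell precursors, gave 111, 174 and 214 in late breast-fed ileum and 314, 534, 687 and 414 in unfed ileum. Both groups were apart and the fall was 2.69-fold (1.89 to 3.82, adjusted p = 0.000875). Hbb, a beta globin, gave 4418, 6581 and 7990 in late breast-fed ileum and 10800, 9060, 8060 and 10100 in unfed ileum, a 1.5-fold fall. Hbg1, a gamma globin, fell 3.14-fold (1.93 to 5.13) and Hbe1, an epsilon globin, fell 2.55-fold, with an adjusted p of 0.0834 without the 2 deviating arrays for Hbe1. The probe sets of Hbb and Hbg1 are of the type built for a gene family, so related globins may not be told apart.

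Some smooth muscle genes rose. All 12 tested smooth muscle markers had a positive difference with all arrays, 3 passed as higher (25%, against 7.22% of all genes), and the median was 0.79. Without the 2 deviating arrays 4 passed, 1 of 12 (Cald1) stood at -0.06 and the median was 0.78. Actg2, the enteric smooth muscle actin, gave 3361, 4867 and 6200 in late breast-fed ileum and 2670, 1800, 2670 and 1750 in unfed ileum, with no overlap and a 2.16-fold rise (1.56 to 2.98). Myh11, smooth muscle myosin, rose 3.00-fold (1.82 to 4.95), although day 3 replicate 2 at 241 lay within the unfed range of 167 to 278. Tpm1, a tropomyosin, rose 2.04-fold in the probe set used, and 1 more of its tested probe sets rose and 2 were not called. The summed muscle signal was 14066 to 20262 in late breast-fed ileum and 7342 to 12458 in unfed ileum. Of 31 matrix and fibroblast markers 5 were higher (16.1%, against 7.22% of all genes) and 1 lower (3.23%, against 3.42%) with all arrays. Without the 2 deviating arrays 0 passed. Col1a1 (0.27 ± 0.39) and Col3a1 (-0.35 ± 0.48), chains of the main fibrillar collagens, were not called in their brightest probe sets. The probe sets of Col1a1 disagreed: another averaged 592 in late breast-fed and 196 in unfed ileum and was called higher (1.35, adjusted p = 0.0276), and its other tested ones differed by -0.27 and -0.68 without a call.

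**Figure D2:**
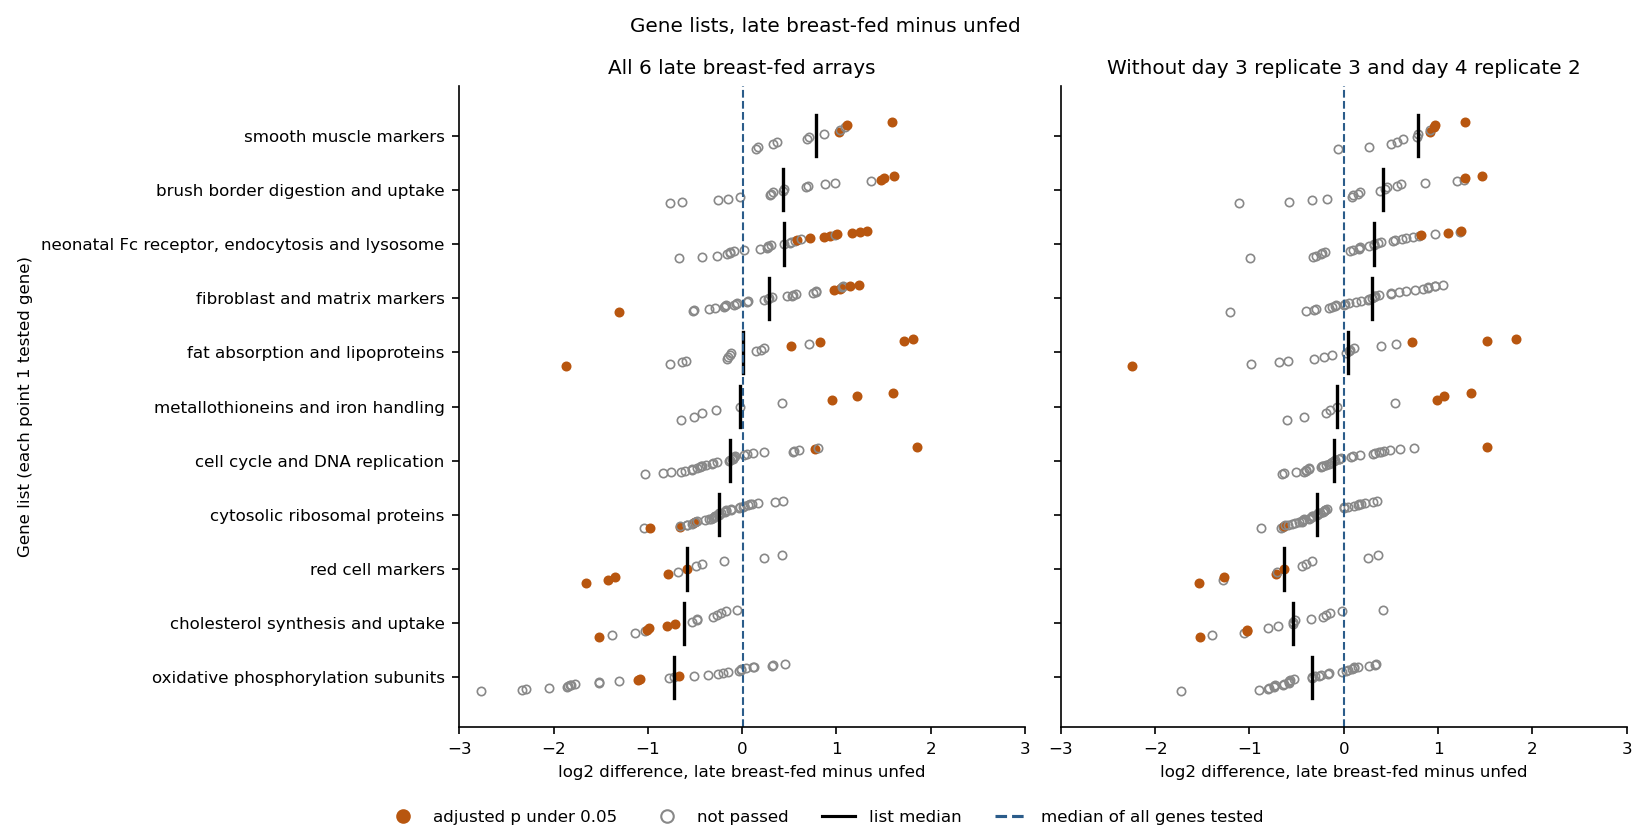
Log2 difference, late breast-fed minus unfed, of each tested gene in 11 lists, with all 6 late breast-fed arrays (left) and without the 2 deviating arrays (right). Filled points passed at an adjusted p under 0.05, black bars are list medians and the dashed line is the median of all genes tested. Of these lists the smooth muscle markers had the highest median (0.79 and 0.78), and the median of the oxidative phosphorylation subunits was -0.73 with all arrays and -0.33 without the 2 deviating ones.

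Among genes of cell division 2 cyclins rose. Ccnd2, a D-type cyclin that drives entry into the cycle, gave 272, 529 and 901 in late breast-fed ileum and 129, 98.7, 185 and 145 in unfed ileum, with no overlap and a 3.61-fold rise (2.33 to 5.58), and its other tested probe set differed by 0.72 (adjusted p = 0.278). Ccnd1 rose 1.71-fold with all arrays, with an adjusted p of 0.086 without the 2 deviating ones. They were the 2 called of 32 tested genes of the cell cycle and DNA replication (6.25%, near the 7.22% of all genes), whose median was -0.13. Pcna, the sliding clamp of DNA polymerase, was not called (-0.09 ± 0.35, adjusted p = 0.909), and Top2a, a topoisomerase of dividing cells, gave 22.1 and 9.56 on the deviating arrays against 192 to 399 on the other late breast-fed arrays and 137 to 389 on the unfed arrays. Rbl2, a relative of the retinoblastoma protein that restrains the cycle, rose 2.02-fold. It was 1 of 3 genes called among 8 tested cell cycle inhibitors, beside Rb1, which rose by 0.80, and Btg1, which fell by 0.72 on the log2 scale, and neither Rb1 nor Btg1 passed without the 2 deviating arrays. Of these inhibitors 25% were higher and 12.5% lower, against 7.22% and 3.42% of all genes, and their median was -0.49. Of 15 imprinted and fetal growth genes 0 were called, including Igf2 (0.15 ± 0.34) and H19 (-0.13 ± 0.31). Afp, the fetal serum protein, had a difference of 1.57 ± 0.52 and an adjusted p of 0.0531, and another of its probe sets was called at 1.73 (adjusted p = 0.00622).

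Defence and signalling genes moved both ways. Gpx3, the secreted glutathione peroxidase, had signals of 3535, 4860 and 8168 in late breast-fed ileum and 494, 1550, 938 and 785 in unfed ileum. The groups did not overlap, the rise was 5.73-fold (3.80 to 8.63, adjusted p = 2.86e-05), and without the 2 deviating arrays the difference was 2.73 on the log2 scale. Another Gpx3 probe set, lost on day 3 replicate 3, differed by 1.17 (adjusted p = 0.38). Pmepa1, an inhibitor of TGF-beta signalling, gave 208, 357 and 514 in late breast-fed ileum and 12.4, 61.0, 41.7 and 88.6 in unfed ileum, a 6.98-fold rise (4.29 to 11.4). Il15, a cytokine that sustains intraepithelial lymphocytes, gave 12.5, 51.1 and 85.5 in late breast-fed ileum and 140, 113, 148 and 110 in unfed ileum, with no overlap and a 2.46-fold fall (1.66 to 3.65). The other tested probe sets of Il15 differed by -0.02 and -1.01 (adjusted p = 0.978 and 0.0505) and were not called. Il18, an epithelial cytokine of the interleukin 1 family, fell 2.09-fold (1.39 to 3.14). Gpr15lg, the ligand of a T cell homing receptor, gave 658, 984 and 1229 in late breast-fed ileum and 2640, 1850, 2720 and 2590 in unfed ileum, a 2.56-fold fall (1.91 to 3.42). Of 20 cytokines and NF-kB targets 1 was higher (5%, against 7.22% of all genes) and 2 were lower (10%, against 3.42%). Of 8 lymphocyte markers 1, Gzmb, was higher with all arrays (12.5%, against 7.22% of all genes), and 0 were higher without the 2 deviating arrays.

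Among the other genes with the largest changes, Paqr3, Trim8, Foxn3 and Rplp1l3 rose by 1.66 to 2.0 on the log2 scale. Paqr3, a Golgi membrane protein, gave 94.3, 139 and 334 in late breast-fed ileum and 27.5, 53.6, 39.8 and 20.4 in unfed ileum. Akr1c13, an aldo-keto reductase, fell 5.09-fold (2.28 to 11.4), with signals of 18.4, 40.3 and 170 against 281, 175, 283 and 378 in unfed ileum. Trappc6b, a subunit of a vesicle tethering complex, gave 55.2, 57.6 and 63.8 against 181, 155, 259 and 121 in unfed ileum, with no overlap. Rida, Rab3ip, Abat and Anapc15 also fell, by 1.36 to 1.90. Dynlt1, a dynein light chain, was at 12.9 on day 4 replicate 2 and at 276 to 533 on the other late breast-fed arrays. Of 53 tested genes whose probe set was lost on a deviating array it was the 1 called, and its difference was -1.61 with all arrays and -0.88 without the 2. Of the 15 largest rises 14 were called with each array left out in turn, and Muc13 in 9 of 10. Of the 15 largest falls 11 were, and Rida held in 9, Anapc15 in 7, Dynlt1 in 5 and Fabp1 in 3 of the 10 fits.

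Further lists also held called genes. Xdh, xanthine dehydrogenase, and Gpx3 were the 2 higher of 37 antioxidant and xenobiotic enzymes (5.41%, against 7.22% of all genes). Xdh rose by 1.54 on the log2 scale (adjusted p = 0.0395 without the 2 deviating arrays). Of 15 genes of epithelial junctions and adhesion the keratins Krt8, Krt18 and Krt19 were higher with all arrays (20%, against 7.22% of all genes). The connexin Gjb1 was lower with all arrays (6.67%, against 3.42%), and 0 of the list passed without the 2. Cpe, the carboxypeptidase that matures gut hormones, and Isl1, a transcription factor of endocrine cells, were the 2 higher of 12 enteroendocrine markers (16.7%, against 7.22% of all genes). They rose by 1.03 and 0.93, and without the 2 arrays Cpe passed (adjusted p = 0.0381) and Isl1 did not (adjusted p = 0.0516). Of 17 neuron and glia markers Ncam1 and Vip were higher with all arrays (11.8%, against 7.22% of all genes) and 0 without the 2. The urea cycle enzyme Otc fell by 0.81 and the homocysteine enzyme Ahcy by 0.97, and neither gene's groups overlapped. Of 39 lists in all, 34 had at least 1 called gene.

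Some lists moved with the 2 deviating arrays. Of 31 oxidative phosphorylation subunits 3 were lower with all arrays (9.68%, against 3.42% of all genes) and 0 without the 2. The 3 were Atp5pf, Cox5b and Uqcrfs1. The list's median was -0.73 with and -0.33 without the 2 arrays. Cox5b gave 346 and 1190 on the deviating arrays and 1640 to 2490 on the other 4, against 2420 to 3890 on the unfed arrays. Of 24 endoplasmic reticulum chaperones and heat shock proteins 0 passed with all arrays and 3 were higher without the 2 (Hspa4, Hspa5 and Pdia3), where 3.11% of all genes were higher. Of 37 cytosolic ribosomal proteins 3 were lower with all arrays (8.11%, against 3.42% of all genes) and 1, Rps15, without the 2, with medians of -0.25 and -0.29. The other tested probe sets of Rps15 differed by 0.21 and 0.59 and were not called. The exocrine pancreas (8 tested), fat tissue (9) and endothelial (5) marker lists had 0 calls with all arrays and 0 without the 2.

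The next question was which levels still differed between days 1 and 2 and days 3 and 4 of breast feeding. Against early breast-fed ileum, 150 genes were higher (4.71%) and 99 lower (3.11%) in late breast-fed ileum with all arrays. Without the 2 deviating arrays 4 genes were higher and 0 lower, and with the run as a term 37 probe sets were called in place of 406, so most of these calls held only with those arrays and without the run term. Most early breast-fed arrays were of the first run and most late breast-fed arrays of the second, so day and run were largely confounded. Of the 406, 56.2% were higher, against 86.1% of 273 with the deposited signals and 71.0% of 434 with arrays set to a common median. The 4 genes were Fbp1, Itih3, Paqr3 and Capg, of which Capg was chosen after its values were seen. Fbp1 averaged 467 ± 225 in late and 146 ± 28.4 in early breast-fed ileum (SD, n = 6 each), with ranges of 254 to 840 and 121 to 201, a difference of 1.51, or 1.58 without the 2 arrays (adjusted p = 0.0461). Itih3, a plasma protein that binds hyaluronan, averaged 151 ± 110 in late and 41.5 ± 15.2 in early breast-fed ileum, with ranges of 46.2 to 343 and 26.5 to 63.2 that overlapped, and differences of 1.47 and 1.37 (adjusted p = 0.042 without the 2). Muc2 averaged 1312 ± 459 in late and 925 ± 329 in early breast-fed ileum and was not called (0.55 ± 0.35, adjusted p = 0.335). Mep1b averaged 994 ± 220 in late and 782 ± 56.0 in early breast-fed ileum, and Scd2 142 ± 30.2 and 334 ± 387, both without a call. A missing call does not show that late and early levels were alike, and early breast-fed ileum was not tested against unfed ileum here.

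**Figure D3:**
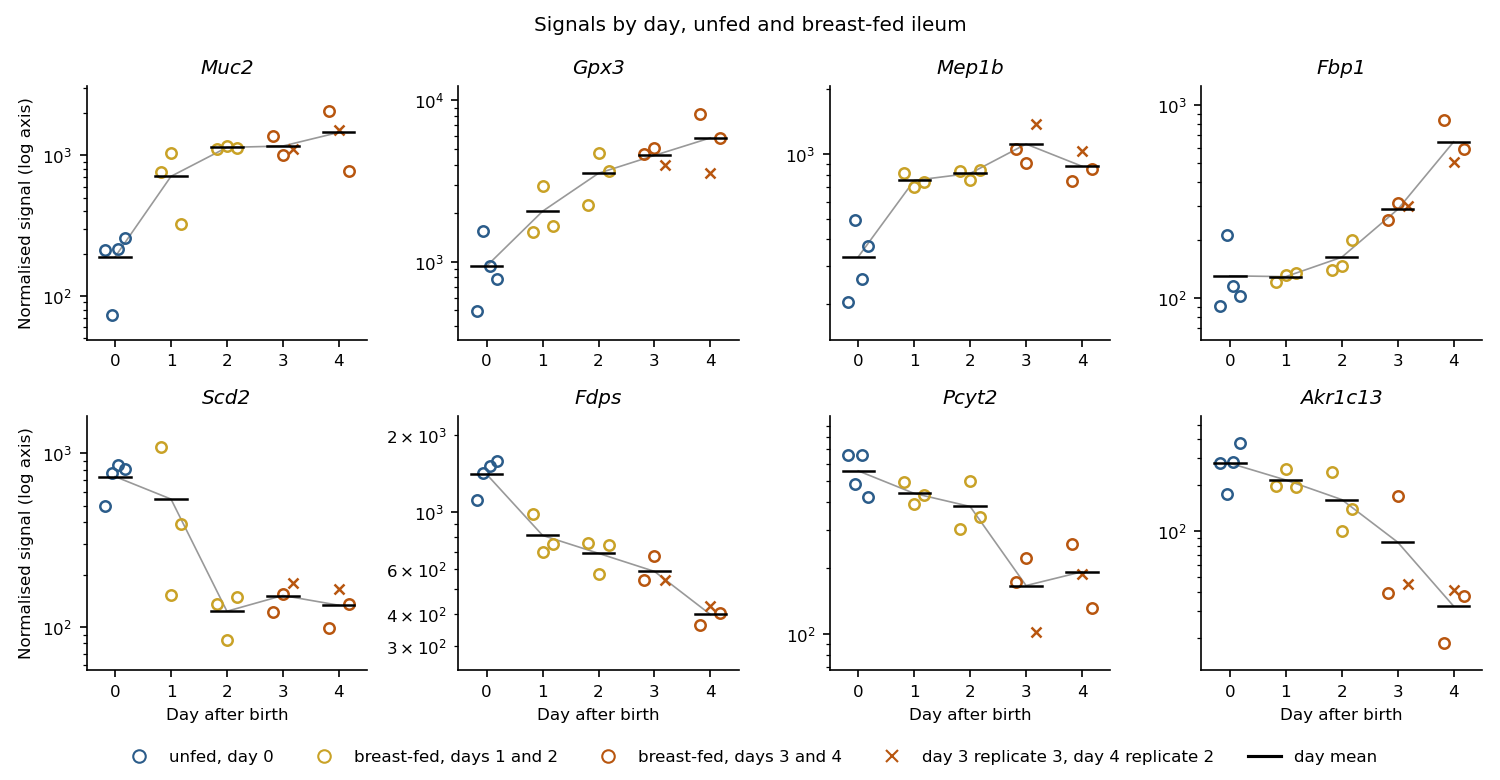
Quantile normalised signal (log axis, arbitrary units) of 8 genes on each array of unfed (day 0) and breast-fed ileum (days 1 to 4), with black lines at the means of each day and crosses for the 2 deviating arrays. Fbp1 averaged 146 over days 1 and 2 and 467 over days 3 and 4, while Muc2 averaged 925 and 1312.

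Between day 4 and day 3 of breast feeding 0 of 3185 genes were called by limma (0%), with a smallest adjusted p of 0.899 and 153 genes at an unadjusted p under 0.05. With 3 arrays per day a difference had a median standard error of 0.34 (log2), and without breast-fed day 3 replicate 1 a single probe set was called. Taken against unfed ileum on their own, day 3 gave 141 called probe sets and day 4 gave 383. All day 4 arrays were of the second accession run and most day 3 arrays of the first.

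The last question was which late breast-fed levels were not shared by pups of the same days under formula and hypoxia. In late breast-fed ileum 163 genes were higher (5.12%) and 93 lower (2.92%) than in late formula and hypoxia ileum, or 64 and 65 without the 2 deviating arrays. The share of higher among called probe sets was 63.3%, or 78.8% with a common median, and 143 were called with the run as a term in place of 412. Most late formula and hypoxia arrays were of the first run and most late breast-fed arrays of the second, so regimen and run were largely confounded. Fbp1 averaged 467 ± 225 in late breast-fed, 94.6 ± 57.7 in late formula and hypoxia (SD, n = 6 each) and 130 ± 55.4 in unfed ileum (n = 4). The breast-fed level was 4.93-fold higher than that under formula and hypoxia (3.22 to 7.53, adjusted p = 2.13e-05), with no overlap between the regimens, since the 6 formula and hypoxia arrays lay at 25.5 to 184. Itih3 averaged 151 ± 110, 38.5 ± 9.89 and 35 ± 3.23 in the same order, and was 2.90-fold higher in late breast-fed than in late formula and hypoxia ileum (2.04 to 4.13), with 1 late breast-fed array inside the formula and hypoxia range. Dio1, the deiodinase that activates thyroid hormone, averaged 335 ± 121, 36.7 ± 27.2 and 133 ± 42.7. The late breast-fed arrays spanned 199 to 481 and the formula and hypoxia arrays 11.1 to 89.0, which were apart. Its rise over unfed ileum had an adjusted p of 0.0243, or 0.105 without the 2 deviating arrays, and the difference between the regimens was 3.04 on the log2 scale, or 2.86 without them. Mcpt4, a mast cell chymase, averaged 186 ± 84.1, 5.36 ± 3.14 and 58.8 ± 45.7. The level under formula and hypoxia lay below the added 8, which sets the size of that difference (3.73), and its probe set is of the family type. Of 9 tested mast cell markers Mcpt4 was the 1 higher than in unfed ileum (11.1%, against 7.22% of all genes).

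The immediate early gene Fos averaged 154 ± 64.2 in late breast-fed, 603 ± 221 in late formula and hypoxia and 197 ± 40.5 in unfed ileum, a difference of -2.01 between the regimens (31.8 to 216 on late breast-fed and 310 to 953 on formula and hypoxia arrays, with no overlap) and -0.49 ± 0.33 between late breast-fed and unfed ileum. Without the 2 deviating arrays the Fos difference between the regimens was -1.57 (adjusted p = 0.00013). Of 23 immediate early genes 12 were lower in late breast-fed than in late formula and hypoxia ileum, where 2.92% of all genes were lower. This count was made with all arrays only. Klf10 was the 1 higher than in unfed ileum (4.35%, against 7.22% of all genes). The differences between the regimens were 0.07 ± 0.35 for Muc2, -0.15 ± 0.27 for Mep1b and 0.01 ± 0.18 for Fdps (log2, standard error), and none was called. Their differences from the shared unfed arrays under formula and hypoxia were 2.73 for Muc2, 1.75 for Mep1b and -1.53 for Fdps, beside 2.80, 1.61 and -1.52 in late breast-fed ileum.

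**Figure D4:**
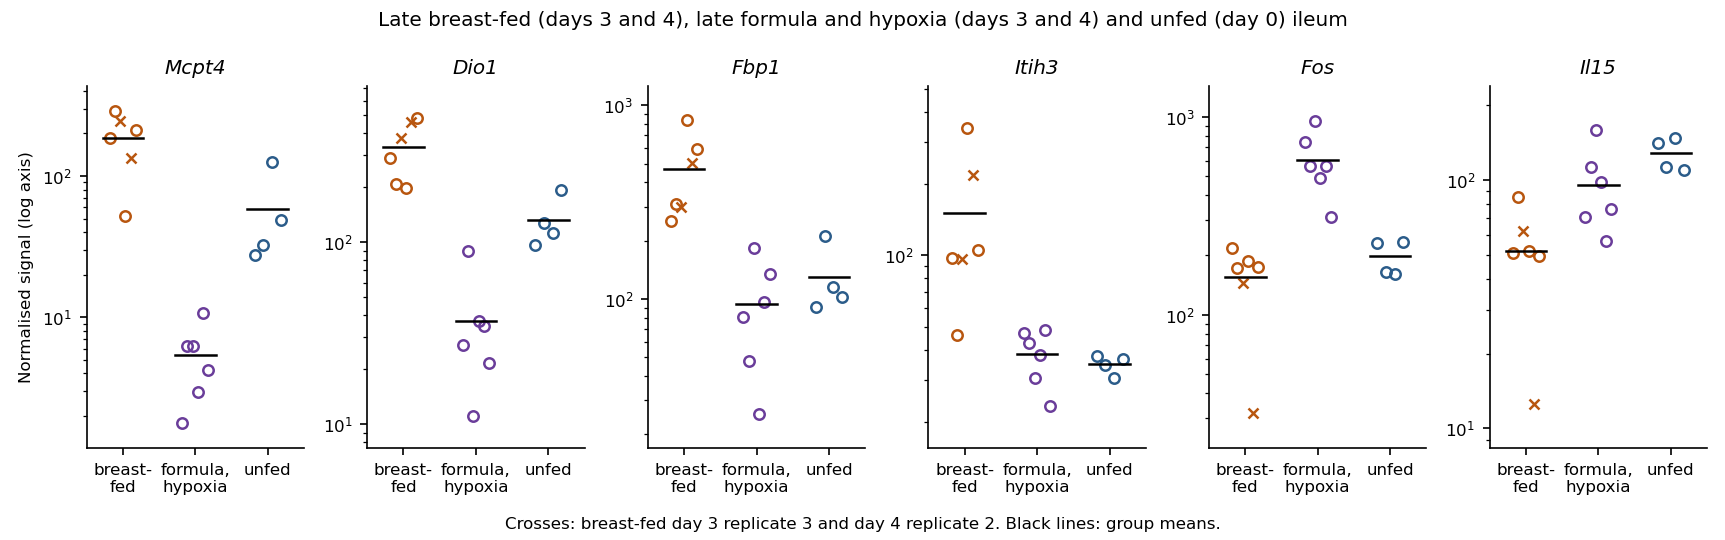
Quantile normalised signal (log axis, arbitrary units) of 6 genes in late breast-fed (6 arrays), late formula and hypoxia (6 arrays) and unfed ileum (4 arrays), with black lines at group means and crosses for the 2 deviating arrays. Mcpt4 averaged 186, 5.36 and 58.8 and Fos 154, 603 and 197 in that order.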

How the data were processed

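RNA of the terminal ileum was measured on 1 array per pup, 28 arrays in 9 groups of diet and day, and replicates are separate pups per the labels. The deposited values are linear intensity signals per probe set, from 0.000562 to 22483 with a median of 37.6. No source used here names the software or scaling behind them, and the signals are not centred. Of 8799 probe sets 59 controls were left out. Of the 8740 others, 7006 had 1 gene symbol, 308 several and 1426 none in the platform annotation, and 6985 matched RefSeq. Signals were quantile normalised, a pseudocount of 8 was added and log2 was taken. Probe sets whose mean lay under the 40th percentile (a signal of 24) were dropped, which left 5244. limma 3.58.1 in R 4.3.3 fitted 9 group means (19 residual degrees of freedom, intensity trend, two-sided, Benjamini-Hochberg over the 5244 probe sets, threshold 0.05), and intervals cover 95%. Days 3 and 4 were averaged with equal weight. A gene was represented by its brightest probe set. The number of arrays limits the precision.

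The members and the 39 gene lists (26 of pathways and 13 of cell types) were chosen with earlier results of these data known. Named genes were the 15 largest rises and 15 largest falls called both with all arrays and without the 2 deviating arrays, with a mean signal of at least 100 in the higher group, up to 4 called genes per list, and a set of well-known genes whatever their values. Genes outside this rule (Mvd, Dhcr7, Cald1, Capg, Rb1, Btg1, Hspa4 and some other members of short lists) were named after their values were seen. The procedure was tested on simulated data. The alternatives were other scalings, pseudocounts and filters, 1 probe set per gene, array weights, lost values set to missing, the accession run, single days, the replicate number as a block and leaving out arrays.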

Additional observations from a re-analysis of the deposited data

Results flagged for a closer look

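Single arrays stood far from the rest of their group, by Dixon's criterion, in 14 of 190 groups of signals (95 genes, late breast-fed and unfed each). Chance gives about 1 in 20 groups, and 6 of the 14 fell on unfed replicate 2 and 6 on the 2 deviating arrays. On unfed replicate 2, Muc2 was low at 73.1 (next lowest 212), Gpr15lg at 1850 (2590) and Tpm1 at 497 (1180). On the same array Man2b1 was high at 835 (next highest 350), Apoa4 at 6200 (1930) and Slc5a1 at 1660 (406). On breast-fed day 3 replicate 3, Rida was low at 8.9 (66.7), Abat at 15.4 (44.0) and Uqcrfs1 at 1280 (1960). On breast-fed day 4 replicate 2, Dynlt1 was low at 12.9 (276), Il15 at 12.5 (49.3) and Fos at 31.8 (145). Akr1c13 was high at 170 on breast-fed day 3 replicate 2 (44.7), and Ctsh at 1130 on unfed replicate 4 (754).

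Of the 95 genes looked at, 13 changed differently from the shared unfed arrays in late breast-fed and late formula and hypoxia ileum. This was limma's test of the difference between the regimens. Other genes picked by the naming rule were not looked at here. Of all genes tested 5.12% were higher and 2.92% lower in late breast-fed than in late formula and hypoxia ileum. The difference, on the log2 scale, was 3.73 for Mcpt4 (adjusted p = 2.34e-07), 3.04 for Dio1 (adjusted p = 1.44e-06), 2.30 for Fbp1 (adjusted p = 2.13e-05), 2.23 for Afp (adjusted p = 0.00406) and 1.54 for Itih3 (adjusted p = 0.000398). It was 1.07 for H19 (adjusted p = 0.0179), 1.02 for Igf2 (adjusted p = 0.0415), 0.83 for Ctss (adjusted p = 0.0105), 0.81 for Slc11a2 (adjusted p = 0.0182), 0.70 for Fabp5 (adjusted p = 0.0461) and 0.57 for Elovl5 (adjusted p = 0.0407). It was negative for Il15 (-0.85, adjusted p = 0.0341) and Fos (-2.01, adjusted p = 0.000113). Without the 2 deviating arrays 6 of the 13 did not pass: Ctss (adjusted p = 0.0504), H19 (adjusted p = 0.0584), Igf2 (adjusted p = 0.123), Fabp5 (adjusted p = 0.146), Il15 (adjusted p = 0.165) and Elovl5 (adjusted p = 0.244).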

How the results depend on the processing

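The 558 probe sets called between late breast-fed and unfed ileum became 344 with 1 probe set per gene, 260 without the 2 deviating arrays, 1049 with array weights, 200 with only these 10 arrays in the fit, 14 and 173 within the first and the second accession run, and 141 with day 3 alone. Without unfed replicates 2 and 3, a choice made after seeing the data, it was 366, and leaving out single arrays gave 252 to 676. The 406 of late against early breast-fed ileum became 10 without the deviating arrays and 37 with the run as a term. Single arrays left out gave 61 (without breast-fed day 4 replicate 2) to 501, with 93 without day 3 replicate 3, 139 and 162 without day 1 replicates 2 and 3, and 140 and 158 without day 2 replicates 1 and 3. The 412 of late breast-fed against late formula and hypoxia ileum became 211 and 143 under the same pair of changes. Single arrays left out gave 263 (without formula and hypoxia day 4 replicate 1) to 466, with 268 without breast-fed day 4 replicate 2. Day 4 against day 3 gave 0 to 1. The other alternatives stayed within 1.5 times of these counts, and the cause of the moves was not tested. With the replicate number as a block the 4 counts were 384, 322, 0 and 387. Whether the numbers pair the pups is not known. Same-numbered arrays of breast-fed and unfed ileum deviated with correlations of -0.335 to 0.135, and 0, 1 and 0 of 3 arrays correlated best with their own number. With so few arrays per group these values cannot exclude a pairing. Of 2929 combinations of a called gene and an alternative, 2287 kept direction and side of the threshold, 641 kept direction only, and 1 turned: Ncam1 within the first run stood at -0.0462, against 1.62 with all arrays. The genes were chosen as called on the same arrays, so kept directions are no separate support. Signals near background limit what could be called.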
